A study of Mus musculus with 4 samples.

Results

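The glutathione and antioxidant enzyme genes comprised 62 of the 22802 gene rows of the expression table. They were chosen by name, as the glutathione S-transferase, glutathione peroxidase, peroxiredoxin, thioredoxin, thioredoxin reductase and superoxide dismutase families, with catalase, the enzymes that make and recycle glutathione, the NRF2 regulator genes, the haem oxygenases, Nqo1, Srxn1, Msrb1, Glrx, Glrx3, Mt1 and Mt2. RNA sequencing compared EGFP-positive, laminin-positive cells with EGFP-positive, laminin-negative cells, both sorted from testes of C57BL/6J mice of the genotype mFLE-Cre;CAG-CAT-EGFP at postnatal day 10, with 2 libraries in each group. All groups carry the Cre and the reporter, in which EGFP marks cells with current or earlier Cre activity, and no group without them was analysed here. The labels do not say what drives the Cre. The sample labels call both populations EGFP-positive, whereas the design text gives weak EGFP for the laminin-negative population, so laminin staining and EGFP level cannot be told apart. Whether the 2 libraries of a group stem from different animals is not stated in the labels, and the p-values cover only variation among these libraries, which may be technical.

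Glutathione is a small thiol that cells make from glutamate, cysteine and glycine and keep reduced with NADPH. Glutathione S-transferases attach it to reactive compounds, and glutathione peroxidases use it to remove peroxides, a task that peroxiredoxins perform with thioredoxin instead. The transcription factor NRF2, held in check by its inhibitor KEAP1, activates many of these genes when electrophiles or oxidants are present. In the testis, steroid-making Leydig cells are known as a source of reactive oxygen species, because their cytochrome P450 enzymes leak electrons.

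Expression is in FPKM, a fragment count scaled to transcript length and library size, so levels can be compared between genes. Summed FPKM ranged from 491475 to 548986 per library, and read totals are not known, so the counting error of each value is unknown. Genes with at least 1 FPKM in at least 2 libraries were tested with limma on log2(FPKM + 1), and a gene was called at an adjusted p under 0.05 over all 12348 tested genes. Of all tested genes, 52.9% were called, 26.6% higher and 26.3% lower in laminin-positive cells. Marker genes show what the sorts contained. All 7 Leydig cell markers were lower in laminin-positive cells, with a sum of 208 and 162 FPKM there, against 4870 and 4613 FPKM in laminin-negative cells. Most of these sums was the row of Insl3, which also names Jak3, at 126 and 87.0 FPKM against 4080 and 3822 FPKM. Smooth muscle markers were higher in 6 of 6 cases, at 5345 and 5404 FPKM against 167 and 154 FPKM, and pericyte markers in 7 of 7 cases, at 316 and 323 FPKM against 49.9 and 46.4 FPKM. The pericyte marker Higd1b entered only through the laminin-positive libraries, so it could only be higher. Macrophage markers were higher in 9 of 9 tested cases, at 57.3 and 50.9 FPKM in laminin-positive against 7.63 and 4.67 FPKM in laminin-negative cells. Of these, Emr1, Csf1r, C1qa, C1qb, C1qc, Mrc1 and Tyrobp were below 1 FPKM in both laminin-negative libraries. They entered only through the laminin-positive ones, so they could only be higher. Sertoli cell markers summed to 171 and 158 FPKM against 89.7 and 80.1 FPKM, mostly Aard at 99.96 and 104.5 FPKM against 51.8 and 49.0 FPKM. Of 6 tested Sertoli cell markers 4 were higher, and Sox9 and Inha did not pass, with Sox9 below its laminin-negative level. Among the higher ones, Amh and Dhh entered only through the laminin-positive libraries, so they could only be higher. Germ cell markers summed to 24.6 and 25.5 FPKM against 10.1 and 13.0 FPKM. Endothelial markers summed to 14.2 and 14.0 FPKM against 169 and 177 FPKM, nearly all of it Cdh5 in laminin-negative cells. Only Cdh5 and Tek were lower in laminin-positive cells, and Tek entered only through the laminin-negative libraries, so it could only be lower. Emcn was called higher in laminin-positive cells, at 1.87 and 2.32 FPKM against 0.585 and 0.900 FPKM. It entered only through the laminin-positive libraries, so it could only be higher. Pecam1, Kdr, Flt1 and Tie1 were also higher there, but stayed below 1 FPKM and were not tested. Tie1 was listed at 0 in both laminin-negative libraries. Red blood cell markers stayed between 0.109 and 1.16 FPKM in sum. The part that these cell types play in the differences below was not tested. In bulk samples, fewer cells of a type and less RNA per cell cannot be told apart.

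Of the 62 genes, 57 passed the filter, 13 were higher and 26 were lower in laminin-positive cells, and 18 did not pass the test. The share called was 68.4%, against 52.9% of all tested genes, with 22.8% higher and 45.6% lower against 26.6% and 26.3%. The median log2 difference was −0.15, against 0.01 over all tested genes, and it was −0.04 against 0.12 with equal FPKM sums and −0.23 against 0.02 without laminin-positive replicate 1. The median size of the difference was 0.40 against 0.28. Gsta1, Mgst2 and Gsto2 were below 1 FPKM in both laminin-positive libraries and entered only through the laminin-negative ones, so they could only be lower. Among the genes called higher, Gstk1 and Gstm6 (2 genes) differed by 1 or more on the log2 scale, as did 6 of those called lower, Gsta2, Gsta1, Mgst1, Gpx3, Mt2 and Mt1. Among all tested genes these shares were 7.29% higher and 5.89% lower. The populations did not overlap for 49 of the 57, and for 77.2% of all tested genes. The 5 genes below the filter were Gpx2, Gpx5, Gpx6, Gstm3 and Gstt4. Gpx5 and Gpx6 were listed at 0 in every library, and none of the other 3 exceeded 0.441 FPKM in any library.

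**Figure D1:**
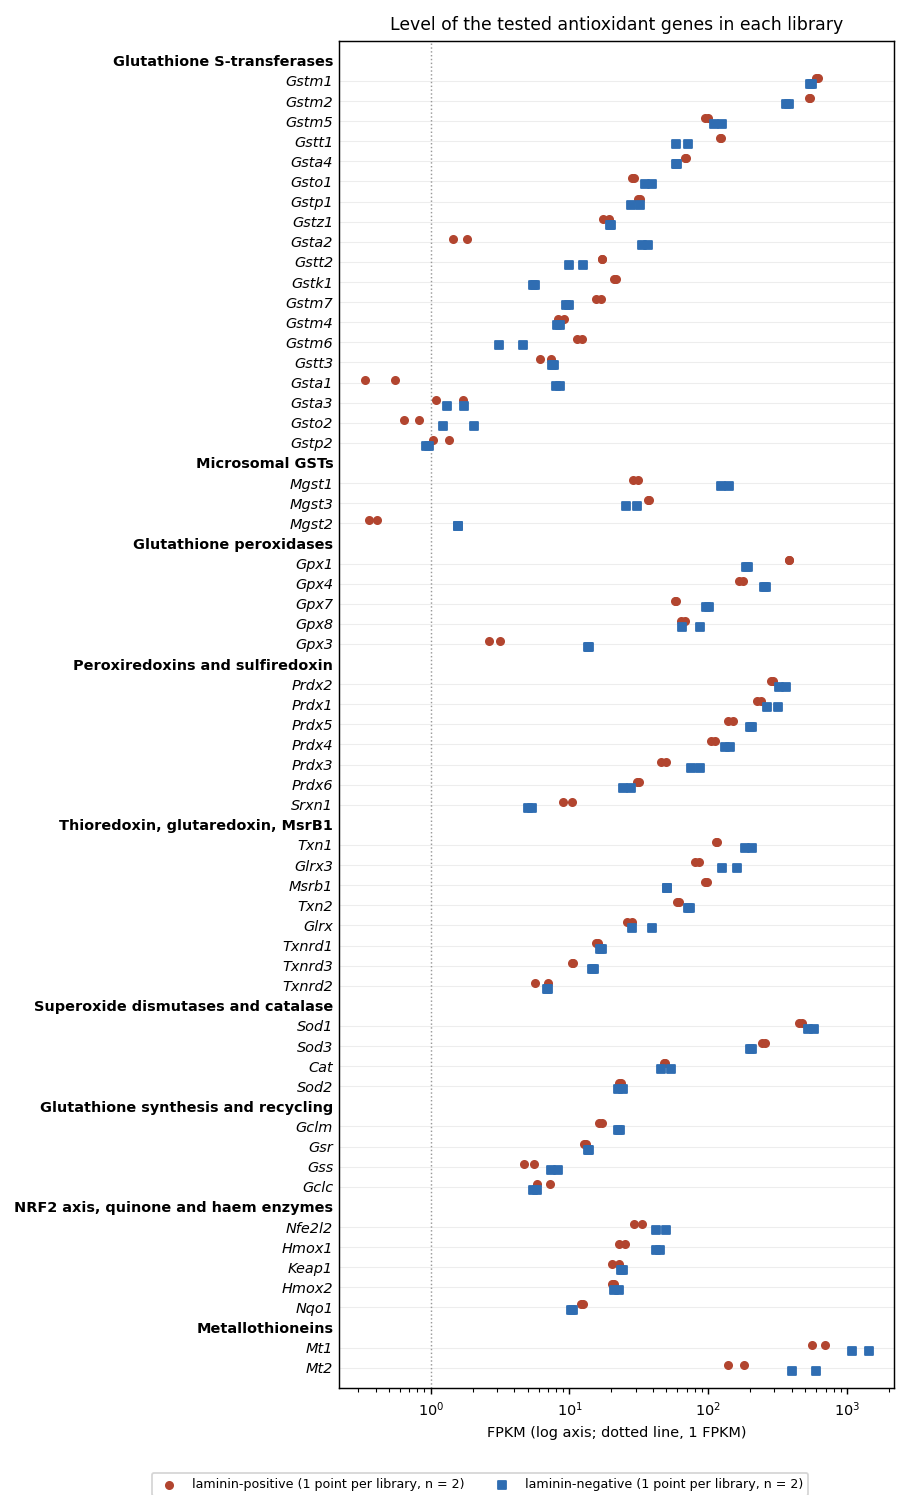
FPKM of the 57 tested genes in each library on a log axis, grouped by family, with circles for the 2 laminin-positive and squares for the 2 laminin-negative libraries. By the mean of the 4 libraries the most abundant rows are Mt1, Gstm1, Sod1 and Gstm2, although Mt2 exceeds Gstm2 in both laminin-negative libraries and Gstm1 exceeds Mt1 in laminin-positive replicate 2, and the widest gaps between populations are those of Gsta2 and Gsta1.

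Within the cytosolic and mitochondrial glutathione S-transferases, 7 of 19 tested genes were higher in laminin-positive cells and 5 were lower. These shares were 36.8% and 26.3%, against 26.6% and 26.3% of all tested genes. The summed level was 1589 and 1608 FPKM in laminin-positive and 1315 and 1373 FPKM in laminin-negative cells. Gstm1 and Gstm2 of the mu class made up most of it, 71.2% and 72.0% in laminin-positive and 68.9% and 68.2% in laminin-negative libraries. Gstm1 had 601 and 620 FPKM in laminin-positive against 542 and 555 FPKM in laminin-negative cells. The groups did not overlap, but the log2 difference of 0.15 (SE 0.07) did not pass the test (limma adjusted p = 0.108, 95% interval −0.01 to 0.32), and with libraries set to equal FPKM sums it did, at 0.27 (adjusted p = 0.00504, the lowest among the alternatives, whose highest was 0.448). Gstm2 had 531 and 538 FPKM in laminin-positive against 364 and 381 FPKM in laminin-negative cells, a 1.43-fold higher level (limma adjusted p = 0.000149).

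The largest rises in the family were those of 2 less abundant genes. Gstk1, the kappa-class enzyme of mitochondria and peroxisomes (chromosome 6, 42245935 to 42250447, GRCm38), had 20.99 and 21.6 FPKM in laminin-positive cells, against 5.45 and 5.67 FPKM in laminin-negative cells. Both laminin-positive libraries lay above both others, and the ratio of means was 3.83 (log2 difference 1.76, SE 0.09, limma adjusted p = 4.54e-08). Gstm6, another mu-class gene, had 12.3 and 11.4 FPKM against 4.64 and 3.08 FPKM in laminin-negative cells, a ratio of 3.07 (limma adjusted p = 1.16e-05). The neighbouring Gstm7 had 16.9 and 15.6 FPKM in laminin-positive against 9.84 and 9.37 FPKM in laminin-negative cells, a ratio of 1.69 (limma adjusted p = 7.11e-05). In the theta class, Gstt1 had 122.6 and 121.7 FPKM in laminin-positive against 59.0 and 71.1 FPKM in laminin-negative cells, 1.88-fold higher. Gstt2 had 17.1 and 17.2 FPKM against 12.5 and 9.93 FPKM, 1.53-fold higher. Both theta genes passed the test (limma adjusted p = 1.06e-05 and 0.00101), while Gstt3, at the edge of the same cluster, did not (0.272). The calls of Gstm6, Gstt1 and Gstt2 were lost without variance shared across genes, at adjusted p of 0.0827, 0.0713 and 0.134 (their highest over the alternatives; the lowest were 1.05e-07, 1.97e-07 and 0.000208).

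The largest falls among the 57 tested genes were those of the alpha class, which conjugates glutathione to lipid peroxidation products and, for a human member, takes part in steroid isomerisation. Gsta2 (chromosome 9, 78331018 to 78355788, minus strand, GRCm38) had 1.83 and 1.44 FPKM in laminin-positive cells, against 33.1 and 36.8 FPKM in laminin-negative cells. The groups were far apart, with a 21.4-fold lower mean in laminin-positive cells (log2 difference −3.77, SE 0.11, limma adjusted p = 7.18e-10). Gsta1 (chromosome 9, 78230656 to 78242684, plus strand) had 0.334 and 0.555 FPKM in laminin-positive against 8.56 and 7.997 FPKM in laminin-negative cells (log2 difference −2.69, SE 0.12, limma adjusted p = 2.30e-08). Its laminin-positive level was below 1 FPKM, so the 18.6-fold ratio is uncertain in size. Their transcripts are hard to tell apart, since 90.5% of the stretches of 50 bases in Gsta1 transcripts also occur in transcripts of another gene, chiefly Gsta2, and 49.8% of those of Gsta2 do, chiefly with Gm10639. The labels do not say how reads were divided between such genes. Gsta4, the alpha enzyme for 4-hydroxynonenal, lies beside Gsta1 and had 67.8 and 68.9 FPKM in laminin-positive against 58.6 and 59.5 FPKM in laminin-negative cells, slightly higher (1.16-fold, limma adjusted p = 0.0285). Gsta4 was thus 37.1 and 47.8 times as abundant as Gsta2 in laminin-positive libraries, against 1.77 and 1.62 times in laminin-negative libraries. The call of Gsta4 was lost without laminin-positive replicate 1, laminin-positive replicate 2 or laminin-negative replicate 1, and without an intensity trend.

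The bases before the starts of Gsta1 and Gsta2 are shown because these neighbouring paralogs fell together. The 250 bases before each RefSeq start (GRCm38.p6) lie at chr9:78230419-78230668, plus strand, and at chr9:78347146-78347395, minus strand. Aligned end to end, 188 of 235 aligned positions (80.0%) were identical, and capitals mark the 4 identical runs of at least 12 bases.
Gsta1: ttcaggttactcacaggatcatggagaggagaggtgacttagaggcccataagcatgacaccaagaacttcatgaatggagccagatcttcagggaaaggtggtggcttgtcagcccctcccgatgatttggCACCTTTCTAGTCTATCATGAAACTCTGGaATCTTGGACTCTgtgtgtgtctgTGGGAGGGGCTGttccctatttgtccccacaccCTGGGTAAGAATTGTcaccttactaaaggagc
Gsta2: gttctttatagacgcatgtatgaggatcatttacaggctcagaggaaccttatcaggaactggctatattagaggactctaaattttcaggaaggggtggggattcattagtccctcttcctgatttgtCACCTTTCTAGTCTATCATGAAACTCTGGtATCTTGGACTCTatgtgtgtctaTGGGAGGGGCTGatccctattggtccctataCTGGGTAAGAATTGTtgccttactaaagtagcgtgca
These runs, of 68 bases in all, lie in the part nearer the start, and the deposited position of the Gsta2 row begins at the same base as the RefSeq start. Such likeness is a description of the sequences and was not linked to the expression values by any test.

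**Figure D2:**
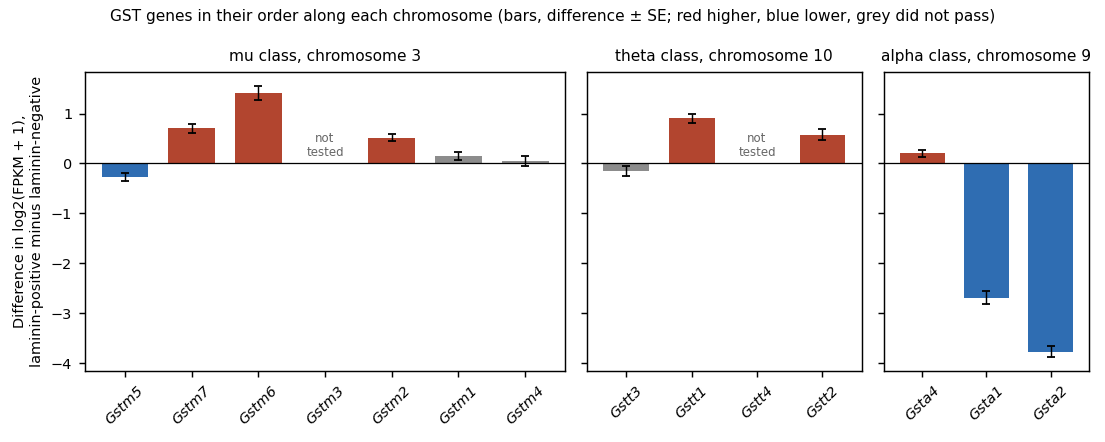
Difference in log2(FPKM + 1), laminin-positive minus laminin-negative, of the mu, theta and alpha glutathione S-transferase genes in their order along chromosomes 3, 10 and 9, with SE as error bars and colours for genes called higher, called lower or not passing. In the mu cluster Gstm6 (1.42), Gstm7 (0.70) and Gstm2 (0.52) were higher while Gstm5 was lower (−0.27), and in the alpha cluster Gsta4 (0.21) and Gsta2 (−3.77) went opposite ways.

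In the mu and alpha clusters the called genes did not all share 1 direction, whereas Gstt1 and Gstt2 were both higher. The mu genes span 149.1 kb of chromosome 3, where Gstm5 alone of the called genes was lower. It had 99.6 and 95.1 FPKM in laminin-positive against 110 and 126 FPKM in laminin-negative cells (limma adjusted p = 0.0154). The position deposited for Gstm5 is 7.49 times the length of the gene and is shared by 3 rows. That call of Gstm5 ended with equal FPKM sums, under quantile normalization, without variance shared across genes, and without laminin-positive replicate 2 or laminin-negative replicate 2. The omega genes Gsto1 and Gsto2, whose products reduce rather than conjugate, were both lower. Gsto1 had 28.3 and 29.4 FPKM against 35.2 and 39.2 FPKM in laminin-negative cells (limma adjusted p = 0.00417), which did not hold in the fit without variance shared across genes. Gsto2 stayed between 0.639 and 0.825 FPKM in laminin-positive and between 1.22 and 2.06 FPKM in laminin-negative cells, and its call ended without laminin-negative replicate 2, without a filter and without variance shared across genes, and at a filter of 5 FPKM it was not tested. The pi-class genes Gstp1 and Gstp2, which share 33.7% and 54.3% of their 50-base stretches with other genes, mainly each other, did not pass, nor did Gstm4, Gsta3, Gstz1 and Gstt3. Their log2 differences lay between −0.15 and 0.17.

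Among the microsomal glutathione S-transferases, which sit in membranes, Mgst1 accounted for the difference in sum, at 66.4 and 68.7 FPKM in laminin-positive against 150.0 and 173 FPKM in laminin-negative cells. Mgst1, which protects membranes from lipid peroxides (chromosome 6, 138140316 to 138156755, GRCm38), had 28.6 and 31.4 FPKM in laminin-positive cells, against 122.9 and 140.7 FPKM in laminin-negative cells. It was 4.40-fold lower (log2 difference −2.10, SE 0.09, limma adjusted p = 9.98e-09), with a gap much wider than the spread within either group. Mgst2, whose product can make leukotriene C4, had 0.357 and 0.410 FPKM against 1.56 FPKM in both laminin-negative libraries. It passed at a low level (limma adjusted p = 0.000145). Mgst3 went the other way, with 37.5 and 36.9 FPKM in laminin-positive against 25.5 and 30.7 FPKM in laminin-negative cells, 1.33-fold higher (limma adjusted p = 0.00436, lost at 0.172 without variance shared across genes).

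Glutathione peroxidases kept a similar sum, 682 and 676 FPKM in laminin-positive against 632 and 642 FPKM in laminin-negative cells, while its makeup differed. Gpx1, the cytosolic selenium enzyme for hydrogen peroxide (chromosome 9, 108338903 to 108340343, GRCm38), had 379.9 and 381 FPKM in laminin-positive cells, against 195 and 186 FPKM in laminin-negative cells. It was 1.999-fold higher (log2 difference 0.996, SE 0.07, limma adjusted p = 7.02e-07), without overlap. Gpx4, the enzyme that reduces phospholipid hydroperoxides and thereby restrains ferroptosis, had 178 and 166 FPKM in laminin-positive against 262 and 253 FPKM in laminin-negative cells. Gpx4 was 1.502-fold lower (log2 difference −0.58, SE 0.07, limma adjusted p = 6.05e-05), and 34.7% of its 50-base stretches occur in other genes, mainly its pseudogene Gpx4-ps2. The position deposited for Gpx4 is 72.5 times the length of the gene and is shared by 47 rows, so that value may rest on a division of reads among them. Gpx1 was 2.14 and 2.30 times as abundant as Gpx4 in laminin-positive libraries, against 0.742 and 0.734 times in laminin-negative libraries. The order of both enzymes was thus reversed between the populations in every library.

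Gpx3, the secreted plasma peroxidase, had 2.61 and 3.17 FPKM in laminin-positive cells, against 13.9 and 13.6 FPKM in laminin-negative cells. Its mean was 4.75-fold lower (log2 difference −1.93, SE 0.11, limma adjusted p = 1.04e-07). Gpx7, a peroxidase of the endoplasmic reticulum, had 58.4 and 58.1 FPKM in laminin-positive against 96.2 and 102 FPKM in laminin-negative cells, 1.70-fold lower (limma adjusted p = 6.54e-06). Its close relative in the same compartment, Gpx8, had 63.4 and 68.0 FPKM against 64.4 and 87.3 FPKM and did not pass (limma adjusted p = 0.213, 95% interval of the log2 difference −0.46 to 0.08). The laminin-negative libraries of Gpx8 differed more from each other than the group means did.

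The peroxiredoxins were lower in laminin-positive cells for 5 of 6 genes and higher for Prdx6. Counted with sulfiredoxin, 71.4% were lower and 28.6% higher, against 26.3% and 26.6% of all tested genes. The summed level with sulfiredoxin was 853 and 870 FPKM in laminin-positive against 1033 and 1149 FPKM in laminin-negative cells. Prdx3, the mitochondrial member, differed most, with 45.6 and 49.8 FPKM in laminin-positive against 74.9 and 87.6 FPKM in laminin-negative cells (log2 difference −0.75, SE 0.09, limma adjusted p = 4.16e-05). Prdx5, found in mitochondria, peroxisomes and cytosol, had 150.0 and 139.7 FPKM against 208 and 201 FPKM (log2 difference −0.49, limma adjusted p = 0.000202). Prdx4, the secretory-pathway member, had 111 and 105.5 FPKM against 132 and 142 FPKM (limma adjusted p = 0.00319). The calls of Prdx3, Prdx4 and Prdx5 were lost without variance shared across genes. Prdx2, the most abundant peroxiredoxin here, had 282 and 294 FPKM in laminin-positive against 325 and 364 FPKM in laminin-negative cells (log2 difference −0.25, SE 0.08, limma adjusted p = 0.0206). The call of Prdx2 was lost under 8 of the 14 alternatives, at adjusted p up to 0.182 in a range from 0.0055, among them equal FPKM sums (0.149), quantile normalization (0.0718), and the fits without laminin-positive replicate 1 (0.142), laminin-positive replicate 2 (0.0665) or laminin-negative replicate 2 (0.0806). Prdx1 had 224 and 240.1 FPKM in laminin-positive against 265 and 321 FPKM in laminin-negative cells (limma adjusted p = 0.0129), a call lost with equal FPKM sums, without a filter, without variance shared across genes, and without laminin-positive replicate 1 or laminin-negative replicate 2. Prdx6, which uses glutathione in place of thioredoxin, had 31.6 and 30.8 FPKM against 24.2 and 27.8 FPKM in laminin-negative cells (limma adjusted p = 0.0282), and lost its call without a filter, an intensity trend or variance shared across genes, and without laminin-positive replicate 1, laminin-positive replicate 2 or laminin-negative replicate 1.

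Sulfiredoxin (Srxn1), which repairs over-oxidised peroxiredoxins, had 8.93 and 10.4 FPKM in laminin-positive cells, against 5.01 and 5.36 FPKM in laminin-negative cells. It was 1.87-fold higher (log2 difference 0.78, SE 0.11, limma adjusted p = 0.000113, lost at 0.0669 without variance shared across genes). The repair enzyme and most of the peroxiredoxins therefore differed in opposite directions.

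Of the 8 thioredoxin, glutaredoxin and methionine sulfoxide reductase genes, 4 were lower and 1 was higher in laminin-positive cells. These shares were 50% and 12.5%, against 26.3% and 26.6% of all tested genes. Cytosolic thioredoxin (Txn1) had 115 and 114 FPKM in laminin-positive against 183 and 208 FPKM in laminin-negative cells, 1.70-fold lower (log2 difference −0.76, SE 0.08, limma adjusted p = 1.54e-05), which did not hold in the fit without variance shared across genes. Glrx3, a glutaredoxin with a role in iron-sulfur cluster handling, had 80.6 and 85.5 FPKM against 125 and 162 FPKM, 1.73-fold lower (limma adjusted p = 0.000155, lost at 0.128 without variance shared across genes). Mitochondrial thioredoxin (Txn2) had 61.3 and 60.0 FPKM against 73.4 and 71.9 FPKM (limma adjusted p = 0.0101), a call lost with equal FPKM sums and without laminin-positive replicate 2. Of the reductases that recharge thioredoxin, Txnrd3 was lower, with 10.7 and 10.4 FPKM against 14.5 and 14.96 FPKM (limma adjusted p = 0.00133). The cytosolic Txnrd1, at 15.6 and 16.1 FPKM against 16.5 and 17.2 FPKM, and the mitochondrial Txnrd2, at 6.94 and 5.67 FPKM against 7.05 and 6.92 FPKM, did not pass (limma adjusted p = 0.428 and 0.337). Msrb1, a selenium enzyme that repairs oxidised methionine, had 97.2 and 94.7 FPKM in laminin-positive cells, against 50.8 FPKM in both laminin-negative libraries. It was 1.89-fold higher (log2 difference 0.90, SE 0.07, limma adjusted p = 1.31e-06), without overlap. Glrx, at 28.1 and 25.9 FPKM against 28.3 and 39.6 FPKM, did not pass (limma adjusted p = 0.0769).

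The superoxide dismutases and catalase differed little. Sod1, the copper and zinc enzyme of the cytosol, had 450 and 470 FPKM in laminin-positive against 522 and 579.7 FPKM in laminin-negative cells, 1.20-fold lower (log2 difference −0.26, SE 0.08, limma adjusted p = 0.0209). This call was lost under 6 alternatives, at adjusted p up to 0.170 in a range from 0.00621, namely without a filter (0.0631), with equal FPKM sums (0.136), without variance shared across genes (0.170), and without laminin-positive replicate 1 (0.169), laminin-positive replicate 2 (0.0758) or laminin-negative replicate 2 (0.0722). Sod3, the secreted enzyme that binds to the matrix, went the other way with 255 and 243 FPKM in laminin-positive against 198 and 208 FPKM in laminin-negative cells, 1.22-fold higher (log2 difference 0.29, SE 0.07, limma adjusted p = 0.00615). Leaving out laminin-positive replicate 1 ended the call (0.0748), as did the fit without variance shared across genes (0.0826), while the lowest value was 0.000258. Sod2, the manganese enzyme of mitochondria, had 23.7 and 22.6 FPKM against 22.5 and 24.4 FPKM, and the groups overlapped (log2 difference −0.02, 95% interval −0.20 to 0.16, limma adjusted p = 0.864). Catalase (Cat), the hydrogen peroxide enzyme of peroxisomes, had 48.6 and 47.7 FPKM against 46.0 and 53.5 FPKM, with overlap as well (log2 difference −0.04, 95% interval −0.23 to 0.15, limma adjusted p = 0.700). By compartment, the mitochondrial genes did not move as 1 block, since Prdx3 and Txn2 were lower, Gstk1 was higher, and Sod2 and Txnrd2 did not pass.

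**Figure D3:**
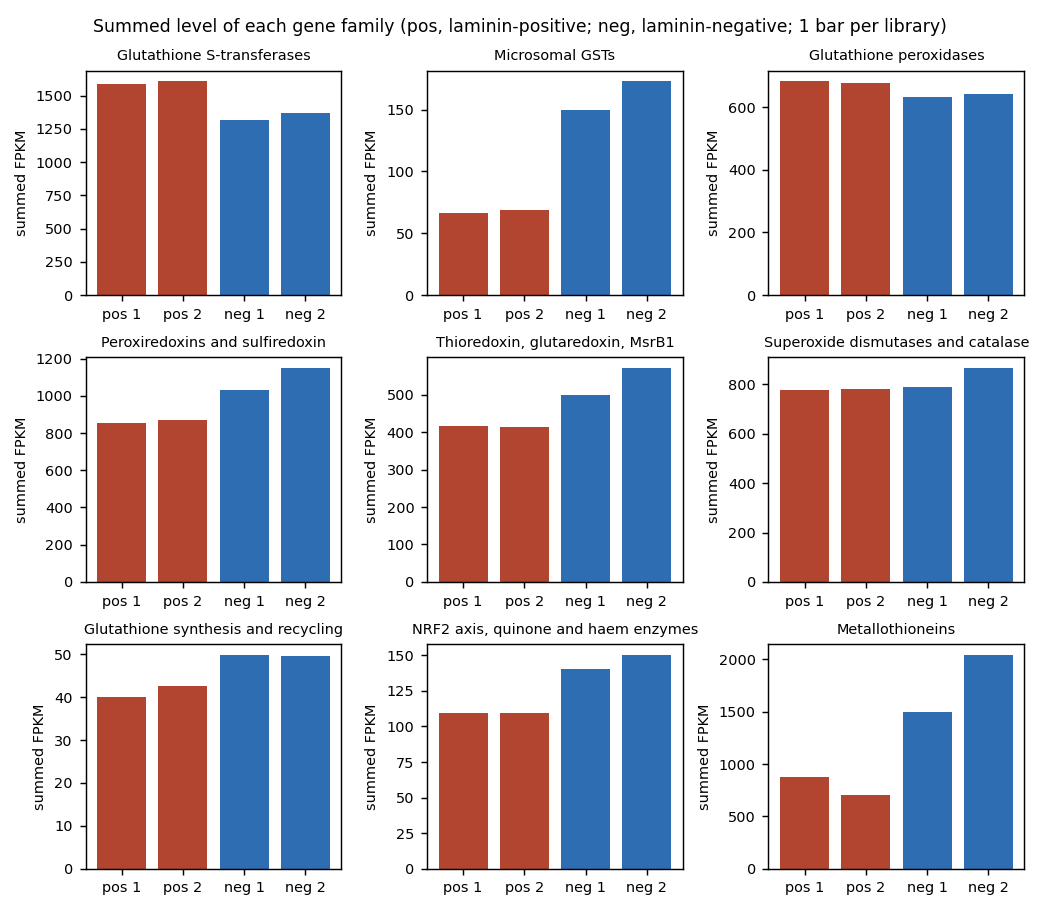
Summed FPKM of each family, with 1 bar per library and the 2 laminin-positive (pos) bars left of the 2 laminin-negative (neg) bars, each panel starting at 0. The glutathione S-transferase sum is higher in both laminin-positive libraries (1589 and 1608 FPKM against 1315 and 1373 FPKM), whereas the metallothionein sum is lower (877 and 702 FPKM against 1495 and 2040 FPKM).

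Glutathione synthesis genes were expressed at low levels next to the enzymes that use glutathione, summing with glutathione reductase to 40.0 and 42.7 FPKM in laminin-positive against 49.8 and 49.7 FPKM in laminin-negative cells. Gclc, the catalytic subunit of the rate-limiting ligase, had 5.84 and 7.29 FPKM in laminin-positive against 5.80 and 5.48 FPKM in laminin-negative cells and did not pass (log2 difference 0.18, 95% interval −0.08 to 0.44, limma adjusted p = 0.215). Its modifier subunit Gclm had 16.2 and 17.2 FPKM against 22.3 and 23.1 FPKM in laminin-negative cells and was 1.36-fold lower (log2 difference −0.42, SE 0.08, limma adjusted p = 0.00134, lost at 0.0517 without variance shared across genes). Gss, the synthetase of the final step, had 4.74 and 5.51 FPKM against 8.21 and 7.30 FPKM (limma adjusted p = 0.00257), which did not hold in the fit without variance shared across genes. Glutathione reductase (Gsr), which returns oxidised glutathione to its reduced form, had 13.2 and 12.7 FPKM against 13.5 and 13.9 FPKM (log2 difference −0.07, 95% interval −0.26 to 0.12, limma adjusted p = 0.503). Modifier subunit and synthetase were thus lower, and neither the catalytic subunit nor the reductase passed.

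The NRF2 gene Nfe2l2 (chromosome 2, 75675513 to 75704641, GRCm38) had 29.3 and 33.2 FPKM in laminin-positive cells, against 41.9 and 49.9 FPKM in laminin-negative cells. The groups did not overlap, and the mean was 1.47-fold lower (log2 difference −0.54, SE 0.10, limma adjusted p = 0.000936, lost at 0.146 without variance shared across genes, in a range from 9.98e-05). Its inhibitor Keap1 had 22.7 and 20.3 FPKM against 24.2 and 23.4 FPKM and did not pass (limma adjusted p = 0.180). Hmox1, the inducible haem oxygenase and a classical NRF2 target (chromosome 8, 75093621 to 75100589, GRCm38), had 25.1 and 22.7 FPKM in laminin-positive cells, against 41.7 and 45.1 FPKM in laminin-negative cells. It was 1.81-fold lower (log2 difference −0.83, SE 0.08, limma adjusted p = 1.09e-05, lost at 0.0519 without variance shared across genes). The part of macrophages, whose markers were higher in the laminin-positive libraries, in the level of Hmox1 was not tested. Nqo1, a quinone reductase that is another classical NRF2 target, did not share the direction of Hmox1, with 12.1 and 12.4 FPKM in laminin-positive against 10.2 and 10.7 FPKM in laminin-negative cells (log2 difference 0.22, limma adjusted p = 0.0600). With equal FPKM sums Nqo1 was called higher, and its deposited position is shared by 5 rows. Constitutive Hmox2, which shares 41.9% of its 50-base stretches with other genes, mainly the overlapping Cdip1, did not pass (limma adjusted p = 0.433).

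The metallothioneins, small cysteine-rich proteins that bind zinc and copper and scavenge oxidants, summed to 877 and 702 FPKM in laminin-positive against 1495 and 2040 FPKM in laminin-negative cells. Mt1 (chromosome 8, 94179082 to 94180327, GRCm38) had 695 and 562 FPKM in laminin-positive against 1094 and 1445 FPKM in laminin-negative cells. Its mean over the 4 libraries was the highest of the 62 genes, though Gstm1 exceeded it in laminin-positive replicate 2. Mt2, its neighbour on the same strand (94172664 to 94173568), had 182 and 139.8 FPKM in laminin-positive against 402 and 595 FPKM in laminin-negative cells. Every laminin-positive library lay below both laminin-negative ones for each gene, although the laminin-negative libraries also differed from each other. Mt1 was 2.02-fold lower (log2 difference −1.01, SE 0.14, limma adjusted p = 0.000105) and Mt2 3.09-fold lower (log2 difference −1.61, SE 0.17, limma adjusted p = 1.41e-05). Both calls were lost without variance shared across genes, at adjusted p of 0.128 and 0.106, in ranges from 6.90e-07 and from 1.55e-10. Mt1 was 3.81 and 4.02 times as abundant as Mt2 in laminin-positive libraries, against 2.72 and 2.43 times in laminin-negative ones. An antisense annotation, Gm45774, overlaps Mt2 and shares 45.8% of its 50-base stretches, so reads of Mt2 and Gm45774 may not be separated. Dissociation and stress genes, known to respond to tissue handling, were abundant everywhere, at 11420 and 10370 FPKM in laminin-positive against 9963 and 9786 FPKM in laminin-negative cells in sum. Of their 10 genes, 3 were higher and 1 was lower in laminin-positive cells (40% called, against 52.9% of all tested genes). Their part in the metallothionein difference was not tested.

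Sequences before the starts of Mt1 and Mt2 are shown because the pair lies side by side and fell together. They are the 250 bases before the RefSeq starts (GRCm38.p6), at chr8:94178839-94179088, plus strand, and chr8:94172368-94172617, plus strand. Capitals mark matches to the core of the metal response element, searched as TGCGCNC and TGCACNC on both strands.
Mt1: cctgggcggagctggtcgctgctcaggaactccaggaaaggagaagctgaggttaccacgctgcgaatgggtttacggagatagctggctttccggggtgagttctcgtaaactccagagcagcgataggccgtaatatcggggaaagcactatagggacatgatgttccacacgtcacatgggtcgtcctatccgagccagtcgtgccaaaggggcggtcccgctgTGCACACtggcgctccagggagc
Mt2: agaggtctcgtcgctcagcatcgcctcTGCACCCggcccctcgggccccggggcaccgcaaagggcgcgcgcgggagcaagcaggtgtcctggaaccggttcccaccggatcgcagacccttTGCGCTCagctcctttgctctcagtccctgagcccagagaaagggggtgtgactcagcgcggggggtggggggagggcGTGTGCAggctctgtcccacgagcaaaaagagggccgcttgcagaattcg
Mt1 held 1 match and Mt2 held 3 in these windows, and 21.4% of 32851 mouse promoter windows of the same length held at least 1. Bases past each RefSeq start were not searched, so these counts need not cover every element of either gene. Of the 72 windows of the 55 genes with a RefSeq start, 19 held a match.

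The antioxidant response element, through which NRF2 acts, was searched in the same windows by its core TGACNNNGC on both strands. Since a gene can have several windows, matches were counted per window. The windows covered 25 of the 26 genes called lower, 9 of the 13 called higher and 16 of the 18 that did not pass. Hmox1, Gclc, Gsr, Gstt2, Gsta4, Prdx6 and Sod3 had no window. Matches were present in 7 of 30 windows of genes called lower, 1 of 12 of genes called higher and 2 of 25 of genes that did not pass, and in 10.2% of all promoter windows. The genes called lower with a match were Gclm, Gstm5, Mgst1, Mt2, Nfe2l2, Prdx1 and Sod1, and the gene called higher was Gstm7. Windows of 4 of these genes are shown because they fell and cover synthesis, conjugation, peroxide removal and the regulator itself, with the match in capitals. They lie at chr3:122245307-122245556, plus strand, at chr6:138140277-138140526, plus strand, at chr4:116685349-116685598, plus strand, and at chr2:75704664-75704913, minus strand.
Gclm: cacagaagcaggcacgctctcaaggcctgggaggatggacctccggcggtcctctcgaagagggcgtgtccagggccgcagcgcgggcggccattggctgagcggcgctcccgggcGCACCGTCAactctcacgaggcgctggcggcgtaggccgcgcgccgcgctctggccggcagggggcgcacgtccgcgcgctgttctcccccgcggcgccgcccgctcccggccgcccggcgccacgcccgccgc
Mgst1: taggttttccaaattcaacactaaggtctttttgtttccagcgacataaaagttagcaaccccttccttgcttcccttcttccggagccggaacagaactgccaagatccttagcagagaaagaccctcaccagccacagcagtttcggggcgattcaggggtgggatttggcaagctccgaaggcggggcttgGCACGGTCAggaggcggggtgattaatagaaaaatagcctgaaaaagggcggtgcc
Prdx1: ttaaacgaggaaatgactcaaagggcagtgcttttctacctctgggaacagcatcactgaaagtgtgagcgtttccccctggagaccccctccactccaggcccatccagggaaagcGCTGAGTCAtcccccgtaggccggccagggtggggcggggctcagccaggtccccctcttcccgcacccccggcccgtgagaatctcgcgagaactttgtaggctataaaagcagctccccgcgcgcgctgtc
Nfe2l2: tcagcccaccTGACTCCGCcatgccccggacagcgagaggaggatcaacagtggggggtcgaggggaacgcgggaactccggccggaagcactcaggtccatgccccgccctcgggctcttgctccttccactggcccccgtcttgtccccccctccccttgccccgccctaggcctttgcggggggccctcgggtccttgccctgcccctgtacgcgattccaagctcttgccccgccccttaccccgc
The match begins 134 bases before the start of Gclm, 56 before that of Mgst1, 133 before that of Prdx1 and 240 before that of Nfe2l2. In Gclm it overlaps a match to the metal response element core that begins 138 bases before the start and is not capitalised. Some genes have several starts, and elements farther upstream were not searched. No binding was measured, so a match describes letters in the window and nothing more.

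**Figure D4:**
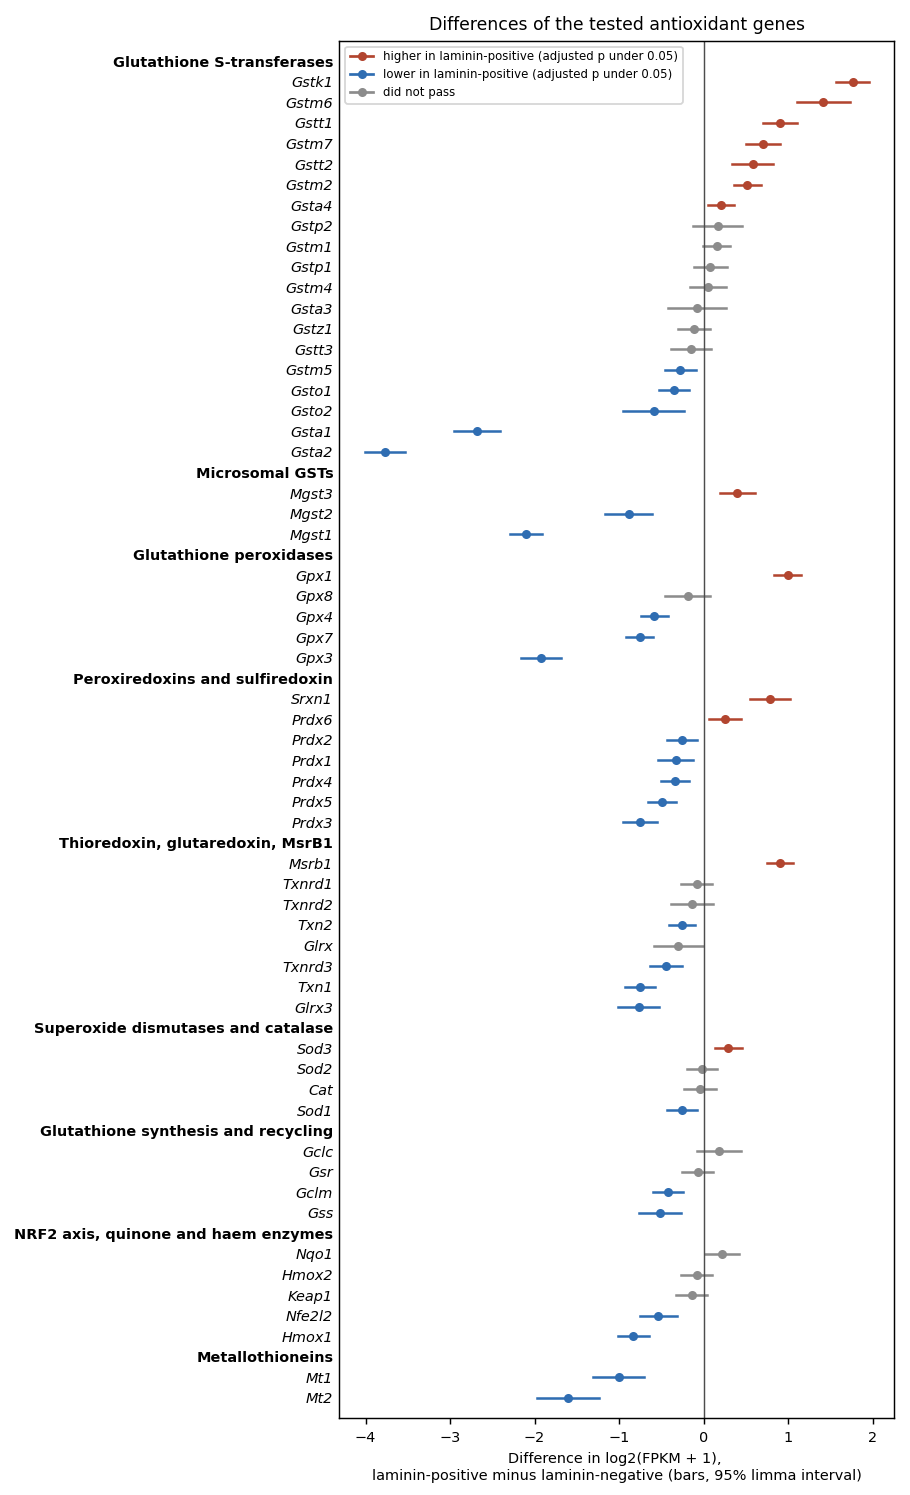
Difference in log2(FPKM + 1), laminin-positive minus laminin-negative, of the 57 tested genes with 95% intervals from limma, grouped by family and coloured by call. Gstk1 (1.76) and Gstm6 (1.42) stand at the upper end and Gsta2 (−3.77) and Gsta1 (−2.69) at the lower end, while the intervals of Sod2 and Cat include 0.

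Genes of the surrounding pathways were read from 4 lists of 86 genes, of which 72 were tested, 16 were higher and 32 were lower in laminin-positive cells (66.7% called, against 52.9% of all tested genes, with a median log2 difference of −0.17). The lists were chosen with earlier results of these data known, so the shares called in them describe the lists and test nothing. In glutathione turnover, 3 of 17 tested genes were higher and 6 were lower (median log2 difference −0.09), and the 52.9% called was the same share as over all tested genes. Slc7a11, among the lower genes, passed the filter only through the laminin-negative libraries, so it could only be lower. Ggt5, a surface enzyme that cleaves glutathione and its conjugates, had 8.30 and 8.60 FPKM in laminin-positive against 43.0 and 41.7 FPKM in laminin-negative cells, 5.01-fold lower (limma adjusted p = 3.89e-09). Its relative Ggt7 went the other way at low level, with 2.69 and 2.64 FPKM against 0.470 and 0.577 FPKM in laminin-negative cells (limma adjusted p = 7.82e-06), and passed the filter only through the laminin-positive libraries. Oplah, which returns 5-oxoproline to glutamate, had 9.98 and 8.48 FPKM against 20.96 and 21.38 FPKM (limma adjusted p = 3.22e-06).

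Other NRF2 targets and partners were higher for 5 and lower for 13 of 24 tested genes (75% called, against 52.9% of all), with a median log2 difference of −0.38. Ephx1, the microsomal epoxide hydrolase, had 18.5 and 20.5 FPKM in laminin-positive against 124 and 122 FPKM in laminin-negative cells, 6.30-fold lower (limma adjusted p = 8.76e-10). Malic enzyme (Me1), a source of NADPH, had 58.3 and 59.0 FPKM against 314 and 352 FPKM, 5.68-fold lower (limma adjusted p = 1.25e-09). Carbonyl reductase Cbr3 had 3.35 and 3.54 FPKM against 11.6 and 10.0 FPKM (limma adjusted p = 1.19e-06). The 5 higher genes were Bach1, Bach2, Mafk, Maff and Cul3, a set named after its values were seen. It includes a repressor of antioxidant response elements (BACH1) and small Maf partners. The other small Maf gene of the list, Mafg, had 8.19 and 7.51 FPKM against 8.32 and 6.92 FPKM and did not pass (limma adjusted p = 0.776). Mafk had 35.2 and 24.8 FPKM against 18.5 and 17.4 FPKM, and Maff 60.0 and 40.1 FPKM against 32.8 and 30.1 FPKM. The log2 differences of the 5 higher genes lay between 0.20 for Cul3 and 0.83 for Bach1. With equal FPKM sums, 22 of the genes in the 4 lists were higher and 28 were lower.

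Redox repair and selenium genes were higher in 5 and lower in 10 of 23 tested cases (65.2% called, against 52.9% of all; median log2 difference −0.15). Msrb3, a methionine sulfoxide reductase like Msrb1, had 97.3 and 106 FPKM in laminin-positive against 10.2 and 9.42 FPKM in laminin-negative cells, 10.4-fold higher (limma adjusted p = 3.31e-10). Msra, which repairs the other stereoisomer of oxidised methionine, had 23.2 and 25.0 FPKM against 10.4 and 12.01 FPKM, 2.15-fold higher (limma adjusted p = 4.68e-06, lost at 0.0501 without variance shared across genes). With Msrb1, 3 of the 4 methionine sulfoxide reductase genes were thus higher in laminin-positive cells, and Msrb2, at 10.2 and 11.3 FPKM against 11.4 and 11.8 FPKM, did not pass (limma adjusted p = 0.369). Pon3, a lactonase, had 11.95 and 11.59 FPKM against 39.9 and 45.2 FPKM, 3.62-fold lower (limma adjusted p = 3.90e-08).

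Among 8 tested enzymes that produce superoxide or hydrogen peroxide, 3 were higher and 3 were lower (75% called, against 52.9% of all; median log2 difference 0.29). Xanthine dehydrogenase (Xdh) had 0.804 and 0.774 FPKM in laminin-positive against 7.11 and 7.76 FPKM in laminin-negative cells (limma adjusted p = 4.73e-08), and passed the filter only through the laminin-negative libraries. Monoamine oxidase B (Maob) had 4.33 and 4.36 FPKM against 23.0 and 25.2 FPKM, 5.54-fold lower (limma adjusted p = 1.04e-08). Lysyl oxidase (Lox), which cross-links collagen and elastin and releases hydrogen peroxide, had 54.9 and 55.6 FPKM against 21.3 and 22.9 FPKM, 2.50-fold higher (limma adjusted p = 1.69e-07).

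**Figure D5:**
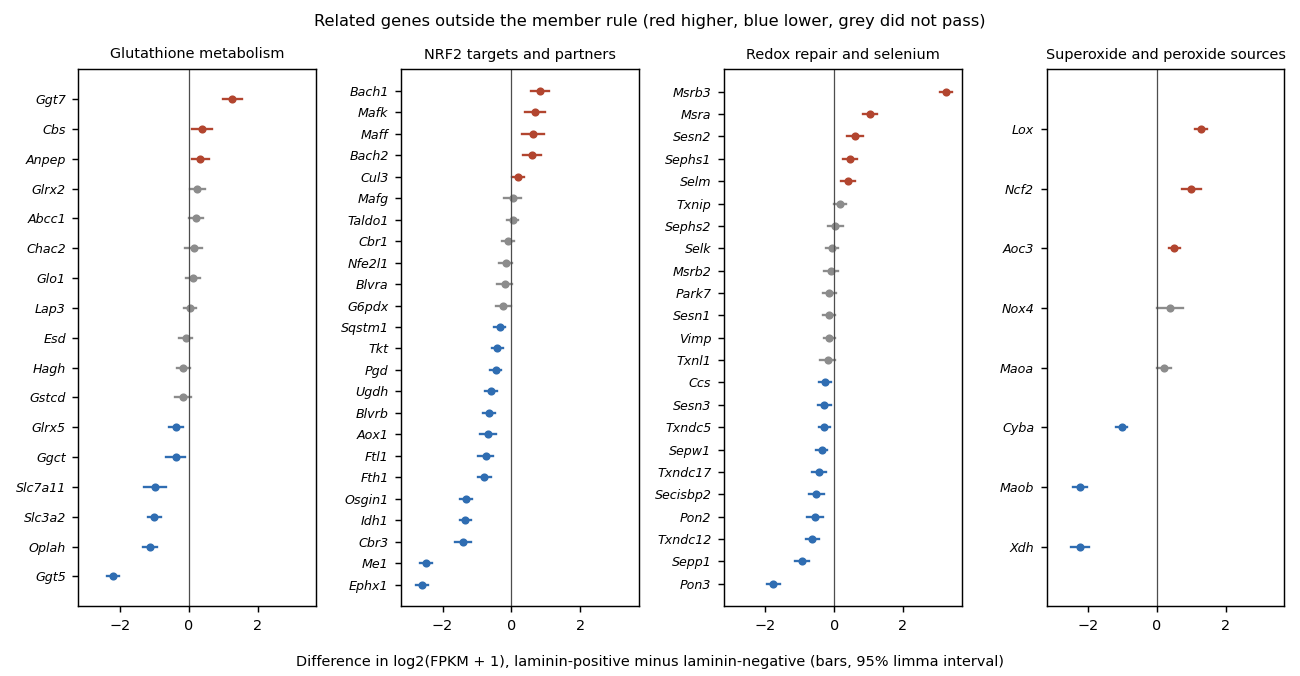
Difference in log2(FPKM + 1), laminin-positive minus laminin-negative, of the tested genes in 4 lists of related pathways, with 95% intervals from limma and colours by call. Ephx1 (−2.60) and Me1 (−2.48) are lowest among the NRF2 targets, and Msrb3 (3.25) is highest among the repair genes.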

How the data were processed

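Gene expression was measured by RNA sequencing in 4 libraries, 2 of laminin-positive and 2 of laminin-negative cells. The deposited values are FPKM per gene row and library, per the file headers. TopHat2 2.1.1 and Cufflinks 2.2.1 were used in steps not specified, per the submitters' processing notes, and libraries were made from total RNA with a directional kit, per the labels' protocols. The genome build, annotation, strand setting, any scaling between libraries and the depth are not stated, and no step of whole fragments was found in the low values. Of 21235 symbols shared with GENCODE M21 (GRCm38), 99.6% overlapped that gene's position, so GRCm38 coordinates are given.

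Genes with at least 1 FPKM in at least 2 libraries were fitted with limma 3.58.1 (R 4.3.3) on log2(FPKM + 1), with a trended empirical Bayes step and two-sided tests, as laminin-positive minus laminin-negative. Benjamini-Hochberg adjustment of p-values ran over all 12348 tested genes. Each gene has 2 residual degrees of freedom, to which the empirical Bayes step, by sharing variance across genes, adds 8.21. An exact permutation test was not used for single genes, since 2 against 2 libraries cannot pass the threshold. Fold values are ratios of mean FPKM, and log2 differences understate the change of genes near 1 FPKM. The procedure was tested on simulated data. Named genes were the 10 called genes with the largest log2 difference in each direction, the 6 with the highest mean FPKM, 11 fixed genes, and up to 3 called genes for each related list. The genes and lists were chosen with earlier results of these data known. List genes missing under their symbol were sought under RefSeq synonyms, which found 6 of 7. Promoter sequences came from RefSeq. Alternatives changed the pseudocount, filter, scaling, variance model, replicate block and libraries.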

Additional observations from a re-analysis of the deposited data

How the results depend on the processing

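Of the 39 calls, 12 held under all 14 alternatives (5 higher, 7 lower), 17 were lost only without variance shared across genes, 10 were not kept under at least 1 other alternative, and 0 changed direction. Of those 10, Gsta4 and Txn2 kept their calls without shared variance, and Mgst2 kept it wherever it was tested. Without variance shared across genes, 6 of the antioxidant genes were higher and 9 lower, against 13 and 26, and 3 of the related genes were higher and 16 lower, against 16 and 32. Over all genes that fit called 1346 higher and 1211 lower, against 3288 and 3245. It leaves 2 residual degrees of freedom for each gene. Without each library in turn, 10 to 13 of the antioxidant genes were higher and 21 to 28 lower. Equal FPKM sums after leaving out Rn45s moved the median log2 difference of all genes from 0.01 to 0.12, with 4255 higher and 2382 lower (64.1% higher against 50.3%), and left 15 antioxidant genes higher and 21 lower, with 22 related genes higher and 28 lower. There the calls of Sod1, Prdx1, Prdx2, Txn2 and Gstm5 were lost, and Gstm1 and Nqo1 were called higher. Glrx was called lower with the replicate block and without laminin-positive or laminin-negative replicate 1, and Gpx8 without laminin-negative replicate 1. With the replicate number as a block, 13 were higher and 27 lower. The labels do not say whether same-numbered libraries belong together. Deviations of same-numbered libraries correlated at r = 0.01 across genes, but 2 pairs cannot settle whether they were paired. The depth is unknown, which limits genes of a few FPKM most.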
